A study of Mus musculus with 8 samples.

Results

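Stra8 and 9 other genes of meiosis and the germline (Dazl, Ddx4, Sycp1, Sycp3, Hormad1, Mael, Tex101, Rec8 and Smc1b) were followed through 8 RNA-seq libraries of mouse embryonic stem cells (mESCs) and their derivatives. The genes were taken by name and matched by their GENCODE symbol, which found all 10 among the 37620 genes counted. Stra8 was chosen by its CPM (counts per 1000000) on days 2, 5 and 11 of culture with BMP4, which fell, so its values are given as a description with no test. The other 9 were listed with it, with earlier results of these data known.

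The R1 line, a mESC line kept without feeder cells in serum-containing medium, gave 7 of the libraries. In 2i, cells received CHIR99021 (a GSK3 inhibitor, 3 µM) and PD0325901 (a MEK inhibitor, 1 µM). In 2iJ a JAK inhibitor (2.0 µM) was added, and in 2iJ+B-A also BMP4 (10 ng/ml) and an inhibitor of the receptor kinase ALK5 (10 µM). There was 1 library each of 2i and 2iJ, both from day 5, and 3 of 2iJ+B-A, from days 2, 5 and 11. The remaining mESC library came from a line in which Cdx2 is reported by GFP, a fluorescent protein, and held GFP-positive cells sorted on day 2 of 2iJ+B-A. The mesoderm progenitors came from embryoid bodies in another medium, with BMP4, Activin A and Wnt3a in place of the 2i inhibitors, and were collected on day 3 or, after a further day with an inhibitor of Wnt secretion, on day 4. Treatment and time therefore could not be told apart between these last libraries.

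In meiosis, a germ cell reduces its chromosome number after the parental copies have paired and recombined. Retinoic acid switches on Stra8, a nuclear protein that germ cells need to enter meiosis. The chromosomes are then held by cohesin with meiosis-specific subunits (Rec8, Smc1b), built into axes (Sycp3, Hormad1) and zipped together by the synaptonemal complex, whose transverse filament is Sycp1. Germ cells also hold RNA-protein granules, in which the RNA helicase Ddx4 and the piRNA factor Mael act, and Dazl binds mRNAs and controls their translation. In most somatic tissues these genes are silent, with DNA methylation at CG-rich promoters and repressor complexes that contain Max, Mga and E2f6 among the known means. Mouse ES cells are known to transcribe many of them at a low level although they do not enter meiosis.

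The promoters of 5 members are shown because Stra8 and Rec8 were the members with the highest levels in 2iJ+B-A on day 2, and Sycp3, Hormad1 and Ddx4 because they held motifs known from repressor complexes. Each sequence is the 250 bases before the RefSeq start in GRCm38.p6, read in the direction of the gene (the counts themselves use NCBIM37). Capitals mark AGGTCA (the half-site of nuclear receptors such as those of retinoic acid), CACGTG (the E-box that Max and its partners bind) and GGCGGGA (an E2F6-type motif).
Stra8, chr6:34920698-34920947 (+ strand): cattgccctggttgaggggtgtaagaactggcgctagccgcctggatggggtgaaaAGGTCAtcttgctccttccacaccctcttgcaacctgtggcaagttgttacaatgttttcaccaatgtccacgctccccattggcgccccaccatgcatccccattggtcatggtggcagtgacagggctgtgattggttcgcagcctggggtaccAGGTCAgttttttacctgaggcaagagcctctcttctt
Rec8, chr14:55617916-55618165 (+ strand): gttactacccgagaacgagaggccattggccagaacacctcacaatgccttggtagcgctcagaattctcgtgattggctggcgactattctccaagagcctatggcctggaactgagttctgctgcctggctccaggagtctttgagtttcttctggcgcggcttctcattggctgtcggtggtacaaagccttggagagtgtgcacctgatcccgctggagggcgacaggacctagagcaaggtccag
Sycp3, chr10:88459337-88459586 (+ strand): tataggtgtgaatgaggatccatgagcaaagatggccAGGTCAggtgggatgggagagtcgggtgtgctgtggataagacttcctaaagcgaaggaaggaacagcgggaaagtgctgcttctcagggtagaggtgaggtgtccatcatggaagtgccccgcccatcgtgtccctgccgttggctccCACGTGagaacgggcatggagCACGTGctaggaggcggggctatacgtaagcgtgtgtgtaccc
Hormad1, chr3:95559427-95559676 (+ strand): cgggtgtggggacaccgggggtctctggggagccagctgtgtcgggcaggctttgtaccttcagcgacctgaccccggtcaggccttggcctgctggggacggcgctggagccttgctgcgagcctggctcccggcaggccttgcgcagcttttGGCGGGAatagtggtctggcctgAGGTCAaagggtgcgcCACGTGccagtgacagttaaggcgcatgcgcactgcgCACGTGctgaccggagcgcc
Ddx4, chr13:112652311-112652560 (- strand): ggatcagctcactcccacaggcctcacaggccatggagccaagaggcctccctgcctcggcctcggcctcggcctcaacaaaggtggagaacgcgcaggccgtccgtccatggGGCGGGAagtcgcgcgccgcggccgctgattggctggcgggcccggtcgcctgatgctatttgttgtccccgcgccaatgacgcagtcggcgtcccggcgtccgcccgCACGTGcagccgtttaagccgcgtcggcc

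AGGTCA occurred at 2 places in the Stra8 promoter, with its first base 194 and 38 bases before the start. It was also found once each in Sycp3 (213 bases before the start) and Hormad1 (73 bases), and on either strand in 14.0% of 32851 promoters of this length. CACGTG was present in 5 of the 10 members, at 64 and 43 bases in Sycp3, 57 and 20 in Hormad1, 29 in Ddx4, 94 in Sycp1 and 223 in Mael, and in 6.02% of all promoters. GGCGGGA lay in Ddx4, Hormad1 and Mael and in 9.75% of all promoters. None of the matches overlapped another. The Stra8 promoter held neither CACGTG nor GGCGGGA in this window. Of the 10 members it also had the fewest CG dinucleotides, 5, against 31 in Ddx4, 25 in Smc1b, 20 in Dazl and 10 in Rec8, and a median of 6 over all promoters. These are counts of letters and do not show that a factor was bound.

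Values are CPM, the share of the gene counts on the strand of the transcript, with 95% Wilson intervals that cover counting error only. A library held 19810855 (sorted cells) to 31453888 gene counts, and 3 counts, taken as the smallest readable level, corresponded to 0.0954 to 0.151 CPM. Marker genes went with the labels. Summed over 6 pluripotency markers, the mESC libraries had 2116 to 3492 CPM and the mesoderm progenitors 967 and 183 CPM on days 3 and 4. Summed over 6 nascent mesoderm markers the progenitors had 1540 and 582 CPM, and the mESC libraries 9.54 to 58.7 CPM. The sorted library stood apart, with 29.7% of read pairs unmapped against 2.17% to 3.85% elsewhere, 27.8% of uniquely aligned pairs outside annotated genes against 7.83% to 13.2%, and 91.8 CPM over 5 fibroblast markers against 7.71 to 15.9 CPM.

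All 10 members were transcribed in every mESC library, and in the mesoderm progenitors 7 of them had at most 12 counts. Stra8 spanned the widest range. On day 2 of 2iJ+B-A it had 170 CPM (165 to 176), on day 5 104 CPM (100.1 to 107) and on day 11 4.95 CPM (4.22 to 5.80). In 2iJ and 2i it had 23.8 CPM (22.0 to 25.8) and 22.6 CPM (20.9 to 24.5). The sorted cells had 0.909 CPM (0.575 to 1.44), from 18 counts, and the progenitors 2 counts on day 4 (0.0646 CPM) and 0 on day 3, where the Wilson upper limit is 0.122 CPM. The levels of 2i and 2iJ did not differ beyond counting error, nor did those of the progenitors. The order of the days of 2iJ+B-A is the one Stra8 was chosen by, and counting intervals leave out the spread between cultures.

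**Figure D1:**
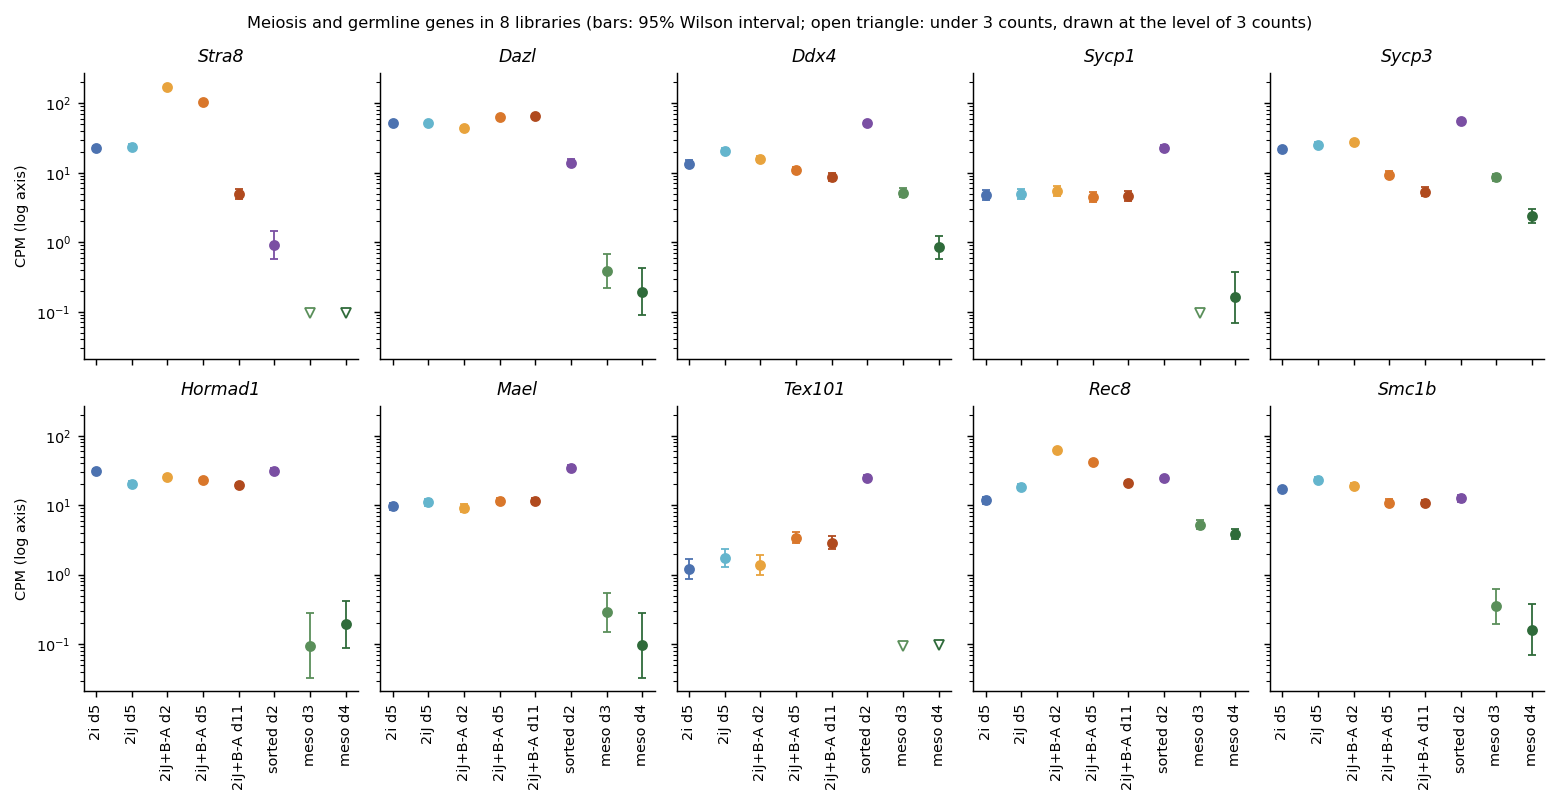
CPM of the 10 members in the 8 libraries on a log axis, with 1 point per library and bars for the 95% Wilson interval; open triangles are libraries with under 3 counts, drawn at the level of 3 counts. Stra8 lies between 0 and 170 CPM, while Dazl, Hormad1 and Mael hold similar levels in the 5 unsorted mESC libraries and lie under 0.4 CPM in the mesoderm progenitors.

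Over the days of 2iJ+B-A, Stra8 was 34.5-fold lower on day 11 than on day 2 (counting interval 29.3 to 40.8). This was the fall on which it was chosen. The rest of the panel moved far less. Sycp3, a component of the chromosome axis, had 27.3, 9.41 and 5.31 CPM on days 2, 5 and 11, which is 5.15-fold lower (4.33 to 6.15). Rec8, the cohesin subunit that holds sister chromatids in meiosis, had 61.9, 42.5 and 20.8 CPM, 2.97-fold lower on day 11 (2.71 to 3.26). Tex101, a surface glycoprotein of germ cells, had 1.39, 3.40 and 2.90 CPM and was 2.09-fold higher on day 11 (1.39 to 3.20).

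With 1 library a day there was no test of these steps, and a change of at least 2-fold on scaled log2 CPM was used as a description. By it, Stra8, Rec8 and Sycp3 were lower on day 11 than on day 2, as were 8.05% of 16961 genes with enough counts, and Tex101 was higher, as were 9.78%. The other 6 members stayed within 2-fold. A fall at both steps was seen in Stra8, Ddx4, Sycp3, Hormad1, Rec8 and Smc1b, and in 21.4% of all genes, and a rise at both steps in Dazl and Mael, and in 23.5%. Dazl, the mRNA-binding regulator, had 43.7, 63.6 and 64.7 CPM, and Mael 9.01, 11.5 and 11.6 CPM. Hormad1, an axis protein, was at 25.4, 23.3 and 19.3 CPM and Sycp1 at 5.42, 4.51 and 4.59 CPM. Of the 9 other members, 5 thus had the order over days by which Stra8 was chosen and 4 did not. In the same libraries the summed CPM of 6 primitive endoderm markers was 29.2, 54.5 and 205, and that of 7 trophectoderm markers 447, 1312 and 610. The 6 pluripotency markers summed to 2590, 2714 and 2900 CPM, and 6 primordial germ cell markers to 360, 232 and 148 CPM. The part of the cells that express these markers in the members' values was not tested. In RNA from a whole culture, fewer cells that express a gene and less RNA of it per cell cannot be told apart.

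**Figure D2:**
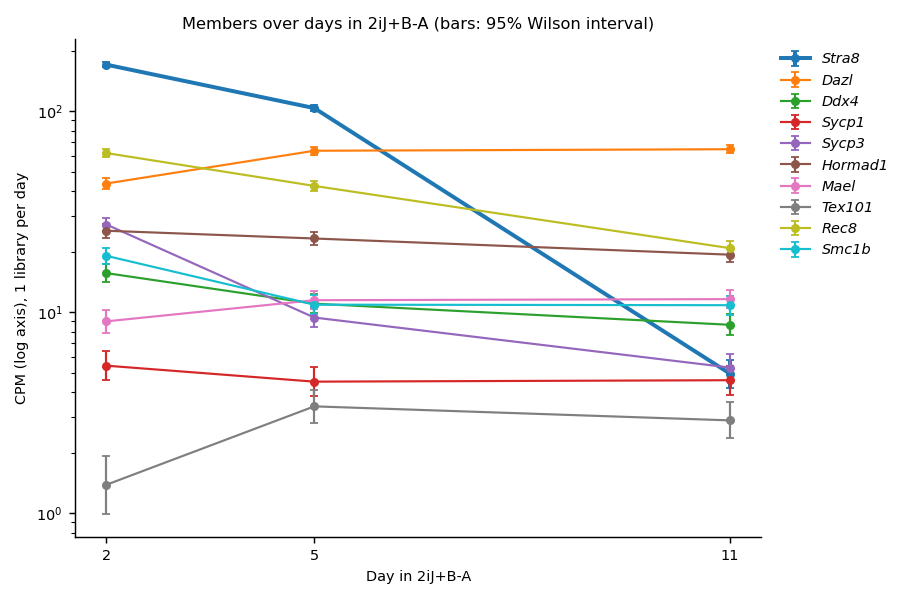
CPM of the 10 members on days 2, 5 and 11 of 2iJ+B-A, on a log axis, with 1 library per day and bars for the 95% Wilson interval. Stra8 (thick line) drops from 170 to 4.95 CPM, Sycp3 and Rec8 fall less, and Dazl, Mael and Sycp1 stay near their day 2 level.

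To ask what BMP4 and ALK5 inhibition did to the panel, the 3 libraries of 2iJ+B-A were compared with the joined group of 2i and 2iJ, so that JAK inhibition was not matched. None of the 9 tested members was called in edgeR's quasi-likelihood test with Benjamini-Hochberg adjustment. Of all genes tested 0.342% were called higher and 0.542% lower, so the lack of calls among 9 members is no result about them. An unadjusted p-value under 0.05 was reached by 1 of the 9 members, Rec8, and by 3103 genes in all. Rec8 had 41.8 ± 20.6 CPM (SD, n = 3) in 2iJ+B-A and 15.0 ± 4.59 (SD, n = 2) in 2i and 2iJ, or 1.41 on the log2 scale (SE, the standard error of a log2 fold change, 0.46; edgeR adjusted p = 0.175). DESeq2 gave an adjusted p of 0.0286 for the same gene. Its values did not overlap between these groups, with 20.8 CPM as the lowest in 2iJ+B-A and 18.3 CPM as the highest outside it. No other member was higher without overlap, a pattern found in 26.5% of genes, and none was lower without overlap, found in 17.0%.

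The remaining members lay within or close to the spread of the libraries. Stra8 had 93.0 ± 83.3 CPM (SD, n = 3) in 2iJ+B-A, since day 11 fell below the 23.2 ± 0.839 CPM (SD, n = 2) of 2i and 2iJ while days 2 and 5 lay above it. Dazl had 57.3 ± 11.8 against 51.8 ± 0.158 CPM, with a log2 fold change of 0.07 (SE 0.24). For Mael the means were 10.7 ± 1.47 and 10.3 ± 0.952 CPM (log2 fold change -0.02, SE 0.33), and for Sycp1 4.84 ± 0.503 and 4.85 ± 0.181 CPM (-0.07, SE 0.34). Among the tested members the widest errors were those of Ddx4 and Sycp3, with log2 fold changes of -0.61 (SE 0.62) and -0.80 (SE 0.72). Tex101, Smc1b and Hormad1 had 0.72 (SE 0.52), -0.63 (SE 0.37) and -0.24 (SE 0.28). Stra8, which was not tested, had 1.94 (SE 1.12). The days of 2iJ+B-A stood in as samples of 1 group, and 2i and 2iJ as those of the other. This spread therefore includes change over time and the JAK inhibitor, and nothing in the labels says that the libraries were separate cultures.

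On day 5 alone, where 2iJ+B-A and 2iJ differ by BMP4 and the ALK5 inhibitor, Stra8 had 104 against 23.8 CPM, 4.35-fold higher (counting interval 3.99 to 4.75). Rec8 had 42.5 against 18.3 CPM, 2.33-fold higher (2.09 to 2.59). In this pair of libraries 11.9% of genes were at least 2-fold higher. Sycp3 (9.41 against 25.3 CPM), Smc1b (10.9 against 23.4 CPM) and Ddx4 (1.89-fold lower in CPM, 1.65 to 2.17) were lower, and on the scaled log2 values all 3 passed the 2-fold limit, as did 7.53% of genes. The meiotic cohesin subunits Rec8 and Smc1b lay in opposite directions. Addition of the JAK inhibitor to 2i left every member within 2-fold, where 4.85% of genes were at least 2-fold higher and 2.42% lower. The most distant members in that pair were Rec8, with 18.3 CPM in 2iJ and 11.8 CPM in 2i, and Hormad1, with 20.2 CPM in 2iJ and 30.7 CPM in 2i.

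The sorted Cdx2-GFP-positive cells of day 2 differed from the unsorted cells of that day in most members. Tex101 had 25.0 against 1.39 CPM, 18.0-fold higher (counting interval 12.7 to 26.3). Sycp1 had 22.7 against 5.42 CPM, 4.18-fold higher (3.44 to 5.11), and Mael 34.8 against 9.01 CPM, 3.87-fold higher (3.32 to 4.52). Ddx4, the germ granule helicase, was 3.33-fold higher (2.96 to 3.76) at 52.1 against 15.7 CPM, and Sycp3 2.06-fold higher (1.87 to 2.27) at 56.3 against 27.3 CPM. Stra8 went the other way, with 0.909 against 170 CPM, 188-fold lower (119 to 317). Dazl was 3.15-fold lower (2.75 to 3.61) and Rec8 2.53-fold lower (2.29 to 2.81). The members thus lay on both sides of the unsorted level, Stra8 farthest below it and Tex101 farthest above.

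In this pair 5 members passed 2-fold upward, where 17.3% of genes did, and 3 downward, where 17.6% did. Hormad1 had 31.4 against 25.4 CPM and Smc1b was 1.52-fold lower (1.30 to 1.78). The sorted library was above all 5 unsorted mESC libraries in Ddx4, Sycp1, Sycp3, Hormad1, Mael and Tex101, as for 30.0% of genes, and below them all in Stra8 and Dazl, as for 35.8%. There was 1 library on each side, so no test was made, and line, sorting and the alignment shares given above differ with it. Trophectoderm markers summed to 3812 CPM in the sorted and 447 CPM in the unsorted cells, and 5 of the 7 were at least 2-fold higher. Primitive endoderm markers summed to 247 and 29.2 CPM, with Dab2 and Gata6 at least 2-fold higher and Foxa2, Gata4 and Sox7 lower. All 5 fibroblast markers were at least 2-fold higher in the sorted cells. The part of these cells and of the library in the members' values was not tested. Of the related germline lists, 8 of 22 genes of the germ granule and piRNA pathway were at least 2-fold higher in the sorted cells and 8 lower (median log2 difference 0.58, all genes -0.03). Of 10 synaptonemal and axis genes 4 were higher and 0 lower (median 0.31). Of 15 recombination genes 2 were higher and 2 lower (median -0.41), and of 4 cohesin genes 1 and 1 (-0.08). Of 10 other germline-restricted genes 4 were higher and 2 lower (0.11), and of 14 retinoic acid genes 7 and 4 (0.66). Some genes of these lists are members, so the lists do not stand apart from the panel.

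**Figure D3:**
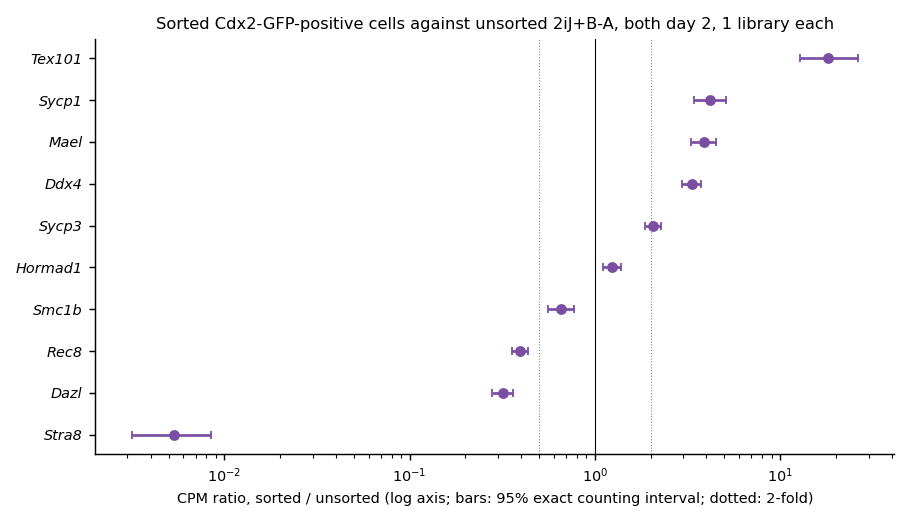
Ratio of CPM in sorted to unsorted cells of day 2 for each member on a log axis, with 1 library on each side; bars are 95% exact counting intervals and dotted lines mark 2-fold. Tex101 is farthest to the right at 18.0, and Stra8 is by far the lowest.

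Against 2iJ+B-A, the mesoderm progenitors had lower levels of 7 of the 9 tested members, and 19.0% of all genes were called lower in that comparison and 15.1% higher. All of these but Rec8 passed the count filter only through the mESC libraries, in which they are high. The count of members called and the adjusted p-values of these 6 genes are therefore a description. Dazl had 0.382 and 0.194 CPM on days 3 and 4, against 57.3 ± 11.8 CPM (SD, n = 3) in 2iJ+B-A, a log2 fold change of -7.60 (SE 0.37, edgeR adjusted p = 9.14e-05). Hormad1 had 0.0954 and 0.194 CPM against 22.7 ± 3.09 CPM, a log2 fold change of -7.24 (SE 0.44, edgeR adjusted p = 0.000178). Tex101, at 0 and 1 count, was 166-fold below 2iJ+B-A on pooled counts (counting interval 29.4 to 6567; edgeR adjusted p = 0.00151). Mael (-5.76, edgeR adjusted p = 0.00037), Smc1b (-5.70, edgeR adjusted p = 0.000558) and Sycp1 (-5.36, edgeR adjusted p = 0.000501) followed on the log2 scale. Each of these 6 genes had 0 to 12 counts in a progenitor library.

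Rec8 fell less and stayed readable. It had 5.21 and 3.84 CPM in the progenitors and 20.8 to 61.9 CPM in 2iJ+B-A, a log2 fold change of -3.20 (SE 0.51, edgeR adjusted p = 0.00364). Ddx4 and Sycp3 did not pass. Ddx4 had 5.18 and 0.840 CPM on days 3 and 4, against 8.66 to 15.7 CPM (log2 fold change -1.96, SE 0.69, edgeR adjusted p = 0.0623), and without the day 3 library its log2 fold change was -3.73 (edgeR adjusted p = 0.00272). Sycp3, with 8.55 and 2.39 CPM, overlapped the 5.31 to 27.3 CPM of 2iJ+B-A (log2 fold change -1.36, SE 0.77, edgeR adjusted p = 0.21). It was the only member whose groups overlapped, and the other 9, Stra8 included, were lower without overlap, as were 31.0% of genes, while 0 were higher, as were 26.2%. All of these but Rec8 and Ddx4 passed the count filter only through the mESC libraries, so the number without overlap is a description. Stra8, which was not tested, was 2733-fold lower on pooled counts (counting interval 756 to 22571), a range set by its 2 counts in the progenitors.

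**Figure D4:**
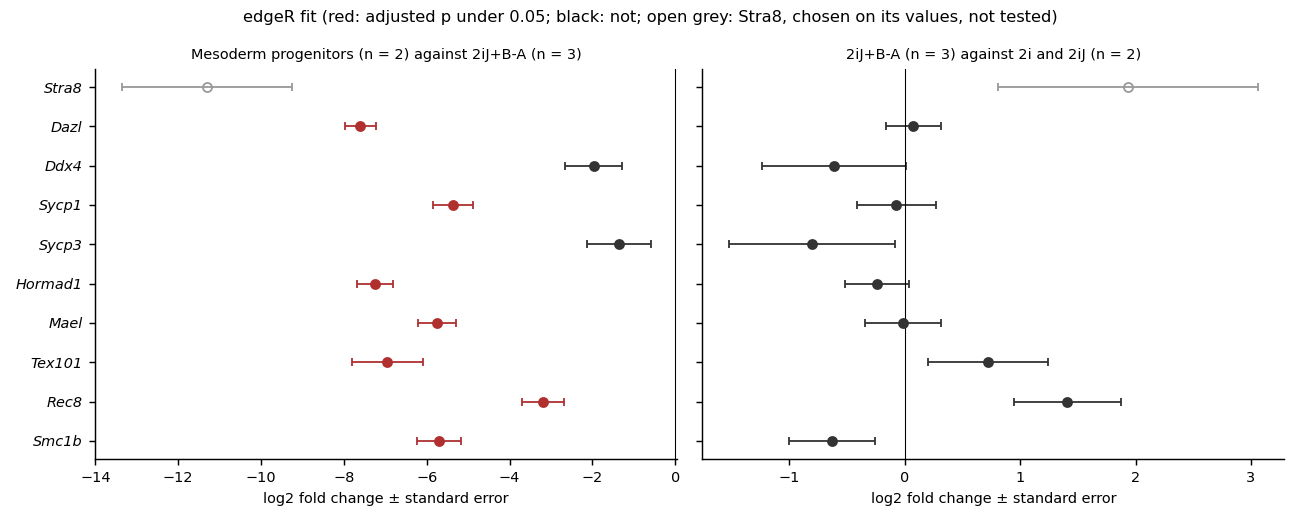
Log2 fold changes with standard errors from the edgeR fit for mesoderm progenitors (n = 2) against 2iJ+B-A (n = 3), left, and 2iJ+B-A against 2i and 2iJ (n = 2), right; red points have an adjusted p under 0.05, and Stra8 (open grey) was not tested. The left panel has 7 red points between -7.60 and -3.20, and the right panel has none. Both panels share the 2iJ+B-A libraries.

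Within the progenitors, Rec8, Ddx4 and Sycp3, the members with over 12 counts, were lower on day 4. Ddx4 was 6.17-fold lower (4.06 to 9.73) and Sycp3 3.58-fold lower (2.76 to 4.69), while Rec8 was 1.36-fold lower (1.06 to 1.73). By the 2-fold description Ddx4, Sycp3 and Mael were lower, as were 11.6% of genes, and 0 members were higher, where 9.40% of genes were. Mael had only 9 and 3 counts on the 2 days, and its interval of 0.737 to 17.0-fold includes no change. Over the same step the summed CPM of the 6 pluripotency markers went from 967 to 183. Of these markers only Nanog and Pou5f1 were at least 2-fold lower, and the median log2 difference was -0.62 (highest 0.88). The part of remaining pluripotent cells in the members' values was not tested.

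Other genes of the same programme were given by lists. Of 10 synaptonemal complex and axis genes, 9 were lower in mesoderm progenitors and 0 higher (median log2 fold change -3.24, all genes -0.03), where 19.0% of all genes were lower and 15.1% higher. Syce2, of the central element, fell by 1.05 on the log2 scale (SE 0.30, edgeR adjusted p = 0.0333). Among 22 tested genes of the germ granule and piRNA pathway 14 were lower and 0 higher (median -2.75), with Rnf17 at -4.69, Tdrd12 at -6.07 and Tex19.1 at -4.13. Of 10 other germline-restricted genes 9 were lower and 0 higher (median -5.73), among them Hsf2bp at -5.45, Stk31 at -5.89, Sohlh2 at -7.26 and Taf7l at -5.65. Many of these genes passed the count filter only through the mESC libraries, and some are members, so their counts are a description.

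Cohesin and recombination genes were more mixed. Of the 4 meiotic cohesin genes Rec8, Smc1b and Stag3 were lower, Stag3 by 1.68 on the log2 scale (SE 0.29, edgeR adjusted p = 0.00495). Rad21l was called higher, from 12 and 3 counts in the progenitors against 0, 1 and 0 in 2iJ+B-A. Of 15 tested recombination genes 5 were lower and 0 higher (median -0.90, all genes -0.03), beside 19.0% and 15.1% of all genes. These were Dmc1, Msh4, Spata22 and Tex11 and the mismatch repair gene Mlh3, and Brca2 (0.34), Mnd1 (-0.97) and Tex15 (0.53) did not pass. Msh4 and Spata22 had 0 counts in both progenitor libraries. Like Smc1b, they passed the count filter only through the mESC libraries. The numbers of cohesin and recombination genes called lower are therefore a description. Of 8 spermatid genes, which act long after meiosis, only Zpbp had enough counts to be tested, and it did not pass. A list of cohesin and helicase genes not restricted to the germline held Rad21, Smc1a, Smc3, Stag1, Stag2 and Ddx3x. Of these 6, Smc1a and Stag2 were higher and Smc3 lower in the progenitors (median 0.14).

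Known regulators showed no common direction. Of 12 repressors of germline genes, 3 were higher in mesoderm progenitors than in 2iJ+B-A (Dnmt3b, E2f6 and Kdm5c) and 4 lower (L3mbtl2, Max, Pcgf6 and Setdb1), with a median log2 fold change of -0.25, beside 15.1% higher and 19.0% lower among all genes. Dnmt3b, a DNA methyltransferase, rose by 1.53 on the log2 scale (SE 0.39, edgeR adjusted p = 0.0217), and Dnmt1 (0.07), Uhrf1 (-0.13) and Mga (-0.38) did not pass. Of 13 genes of retinoic acid response and meiotic entry tested beside Stra8, Aldh1a2, Crabp1 and Cyp26b1 were higher and the receptor Rarg lower (log2 fold change -1.95, SE 0.49, edgeR adjusted p = 0.0204), and the receptors Rara (0.41) and Rxra (0.42) did not pass. Between 2iJ+B-A and the cultures without BMP4, 74 genes of the retinoic acid, synaptonemal, cohesin, recombination, granule and other germline lists were tested. Of these, edgeR called 0 in either direction, beside 0.342% of all genes higher and 0.542% lower. An unadjusted edgeR p under 0.05 was reached by 15 of the 74, and by 3103 of all 16961 genes. Dnmt3a was the only repressor called (log2 fold change -1.26, SE 0.20, edgeR adjusted p = 0.0419). Cyp26a1, an enzyme that degrades retinoic acid, was picked after its values were seen. It had 1.30, 2.42 and 25.2 CPM on days 2, 5 and 11 of 2iJ+B-A and 0.311 CPM in 2iJ. Of 14 genes of the retinoic acid list, Cyp26a1, Rarg, Rdh10 and Stra6 were at least 2-fold higher on day 11 than on day 2, as were 9.78% of all genes. Stra8 alone was at least 2-fold lower, as were 8.05% of all genes. The relation of these genes to Stra8 was not tested.

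By the correlation of log2 CPM over the 8 libraries, the genes most like Stra8 among 13856 were Gm1564 (r = 0.986), 1500011K16Rik (0.976), Wwp2 (0.971), Tcp11 (0.966) and Uqcrb (0.961). None is a member, and all had a far narrower range than Stra8, Gm1564 going from 4.55 CPM in the day 3 progenitors to 22.1 CPM on day 5 of 2iJ+B-A. Within the panel Dazl (0.883) and Rec8 (0.852) were nearest over the 8 libraries. Over the 5 unsorted mESC libraries alone the order changed, and SNORA3, Irgm2, Mrps18c, 6030429G01Rik and Prdx5 came first, while Rec8 stayed positive (0.755) and Dazl turned negative (-0.63). These coefficients rest on few libraries, over the 8 of them also on the step between mESCs and progenitors, and carry no p-value.

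Compared per length of exons, which allows levels of different genes to be set side by side, Stra8 led the panel on day 2 of 2iJ+B-A with 94.7 CPM per kilobase, followed by Rec8 at 22.5, Sycp3 at 21.6, Hormad1 at 14.7 and Dazl at 14.5. On day 11 Dazl was first at 21.5, with Hormad1 at 11.2 and Stra8 at 2.75. In the sorted cells Sycp3 led at 44.5, before Tex101 at 23.7 and Mael at 22.5. The order of the genes thus differed between these 3 libraries.

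The members lie on 9 chromosomes, Sycp1 and Hormad1 both on chromosome 3. In NCBIM37, Stra8 (ENSMUSG00000029848) spans chr6:34870163-34889342 on the + strand, Rec8 (ENSMUSG00000002324) chr14:56236874-56244232 on the + strand, Dazl (ENSMUSG00000010592) chr17:50418719-50432924 on the - strand and Ddx4 (ENSMUSG00000021758) chr13:113388541-113442518 on the - strand. On the - strand lie also Sycp1 (ENSMUSG00000027855, chr3:102622422-102740023), Mael (ENSMUSG00000040629, chr1:168131516-168168875), Tex101 (ENSMUSG00000062773, chr7:25453031-25457069) and Smc1b (ENSMUSG00000022432, chr15:84895121-84962387), and on the + strand Hormad1 (ENSMUSG00000028109, chr3:95363599-95391593). All 10 are annotated as protein coding. Sycp3 (ENSMUSG00000020059, chr10:87922314-87935981, + strand) shares exonic bases with Chpt1 on the opposite strand, so that of 3844 strand-specific counts over all libraries only 1995 were left when strand was ignored. Its values here use strand.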

How the data were processed

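RNA was measured in 8 libraries. The deposited files hold raw counts of read pairs per gene, made by the authors with STAR 2.4.2a on NCBIM37 from directional poly-A libraries after adapter trimming (cutadapt and bcl2fastq 2.17 are in the submitters' processing notes). The summary lines for unmapped, multimapping, ambiguous and no-feature pairs were left out of totals (2.17% to 29.7% of pairs were unmapped). Reverse-strand counts were used, with GENCODE vM1 symbols for 37205 of 37620 genes. The study's ComBat adjustment is not in these counts. Sample codes follow the groups, so a batch that followed them cannot be told apart.

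A joint fit of the 8 libraries was made with the quasi-likelihood test of edgeR 4.0.16 under R 4.3.3 (TMM scaling, 4 group coefficients, 4 residual degrees of freedom). It covered the 16961 genes that reached 10 counts in 2 or more libraries. The adjusted p threshold was 0.05. The p-values measure the spread within groups, which mixes days with treatments. In it, 2i and 2iJ differ by the JAK inhibitor, and the progenitors by day and the inhibitor of Wnt secretion. The fit was tested on simulated data. Pairs of single libraries had a prior count of 2 and a 2-fold limit. DESeq2 1.42.0, RLE scaling, no filter, unstranded counts, other groupings and left-out libraries were alternatives. Depth was 19810855 to 31453888 counts. Members and lists were chosen with earlier results of these data known. All members are named, with up to 4 genes per list by mean CPM, genes called in lists of few calls, and the 5 genes most like Stra8 over 8 and over 5 libraries.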

Additional observations from a re-analysis of the deposited data

Results flagged for a closer look

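Reads on the strand opposite to Sycp1 were outside the main measurement, and in 4 libraries they outnumbered the reads on the strand of the gene. There were 116 such counts in the day 3 mesoderm progenitors, 98 in those of day 4, 172 in 2i and 214 on day 11 of 2iJ+B-A, against 2, 5, 133 and 141 counts on the strand of the gene. Over all libraries the opposite strand held 44.9% of the stranded Sycp1 counts, against 2.09% to 14.6% in the other members. No gene of the annotation overlaps Sycp1.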

How the results depend on the processing

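Against the mesoderm progenitors, 7 or 8 members were called under every alternative run, and 3970 to 6358 genes. Apart from Rec8 and Ddx4, these members passed the main count filter only through the mESC libraries, so their number is a description in each run. The member added was Ddx4, with DESeq2 (log2 fold change -1.95, adjusted p = 0.00571), with no filter (-1.92, edgeR adjusted p = 0.0354) and without mesoderm progenitor replicate 1 (-3.73, edgeR adjusted p = 0.00272). Between 2iJ+B-A and the cultures without BMP4, the 150 genes called became 1313 with DESeq2, 531 with no filter, 0 with 2i and 2iJ as separate groups and 832 with only the groups compared. Leaving out 1 library at a time gave 0 to 821: 0 without 2i, without 2iJ, and without day 5 or day 11 of 2iJ+B-A, and 806 and 821 without day 3 or day 4 of the progenitors. The number of members called there was 0 except with DESeq2, where it was 1, Rec8 (1.39, adjusted p = 0.0286). Log2 fold changes near 0 turned sign in that comparison, Hormad1 to 0.10 with 2iJ alone as reference, and with 1 library left out Hormad1 ranged from -0.516 to 0.099, Mael from -0.104 to 0.083 and Dazl from -0.034 to 0.226, and none of these was called. The cause was not tested. With unstranded counts Sycp1, which has many reads on the opposite strand, went from -5.36 to -1.38 on the log2 scale against the progenitors (edgeR adjusted p = 0.01). Its log2 difference went from 2.07 to 1.67 in sorted against unsorted cells and from -0.26 to 0.59 on day 11 against day 2, a change of sign. That of Sycp3 went from 0.21 to 0.48 in 2iJ against 2i, and from 1.07 to 0.96 in sorted against unsorted cells, below 2-fold. No paired analysis was possible because the labels give no replicate numbers. Levels under about 0.1 CPM cannot be read at this depth.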
